A study of Mus musculus with 6 samples.

Results

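The GABAergic interneuron markers examined here are 28 genes chosen by name as known markers of inhibitory neurons, and all 28 were found as rows of the deposited count table, which holds 55416 genes. They were measured in hippocampal RNA of 36-day-old mice that had received 1 of 2 treatments as pups. The 3 EU libraries came from mice given ethynyluridine, a uridine analogue that cells build into new RNA, at 50 mg/kg under the skin once a day from postnatal day 3 to 5, and the 3 PBS libraries from mice given an equal volume of phosphate-buffered saline. RNA of both groups was reacted with biotin by click chemistry, pulled down on streptavidin beads and made into total RNA libraries, so the PBS pulldown gives the background of RNA that binds without the label. The labels give no strain or sex and do not say whether each library came from its own animal, so p-values measure only how far these samples spread, which may be a technical spread. The comparison asks which RNAs made in the first postnatal week are still held in the tissue a month later.

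Interneurons are the inhibitory minority of hippocampal neurons. They make the transmitter GABA from glutamate with a pair of glutamate decarboxylases, and they fall into classes that arise in different parts of the embryonic ventral forebrain. Cells from the medial ganglionic eminence depend on Lhx6 and Sox6 and become mostly parvalbumin or somatostatin cells, while cells from the caudal eminence become mostly the VIP, cholecystokinin and many of the neurogliaform cells. Several of the markers are shared with other cells, since Cck and Cnr1 are also found in principal neurons, Calb2 in mouse mossy cells and Cajal-Retzius cells, Ndnf in Cajal-Retzius cells, Sox6 in oligodendrocyte precursors, Maf in microglia and Id2 in astrocytes. In whole tissue, fewer cells of a type and less RNA per cell cannot be told apart.

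The libraries held 39886723 to 58301239 counts, and the 28 markers took 0.157% to 0.174% of them. PBS replicate 2 stood apart, with 19243 genes detected against 23816 to 26372 in the other 5 libraries. Of the 28 markers 27 passed the filter on low counts, and Chodl did not. Levels are read counts per 1000000 counts (CPM), scaled with the TMM factors of edgeR. Genes were tested with edgeR's quasi-likelihood test, with Benjamini-Hochberg adjustment over all 18511 tested genes and a threshold of 0.05. The 92 rows of ERCC spike-in RNA were at 0, and scaling sets the libraries to a common level, so these values do not show whether the EU pulldown recovered more RNA in total.

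Interneuron RNAs were recovered in both the EU and the PBS pulldown, and none of the 27 tested markers passed the test. Of all 18511 genes, 0% passed, and the smallest adjusted p among the markers was 0.314, that of Kit. The markers summed to 1603 to 1701 CPM in EU and to 1570 to 1763 CPM in PBS, so the EU libraries lay within the range of the PBS libraries. Values were higher in EU for 17 of the 27 and lower for 10, with a median log2 fold change of 0.07, beside 52.2% of all tested genes with higher values and a median of 0.01. With library totals in place of TMM factors, 20 of the 27 had higher values. An unadjusted p under 0.05 was reached by 5 markers (Kit, Crh, Pnoc, Npas1 and Cort), where 7.88% of all tested genes reached it; 3 of the 5 were higher (3.84% of all genes) and 2 lower in EU (4.05%). The CPM of EU and PBS did not overlap for 6 markers, 4 higher (Dlx2, Maf, Crh and Pnoc) and 2 lower in EU (Npas1 and Kit), where 8.52% of all tested genes lay higher and 7.18% lower without overlap. DESeq2 called 1 marker, Kit, and 2.46% of the genes it gave an adjusted p. It gave none to Dlx5, Cort, Crh and Tac2, so these could not be called by it. Without the filter on low counts, edgeR also called Kit alone among the markers, and 0.797% of its genes.

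**Figure D1:**
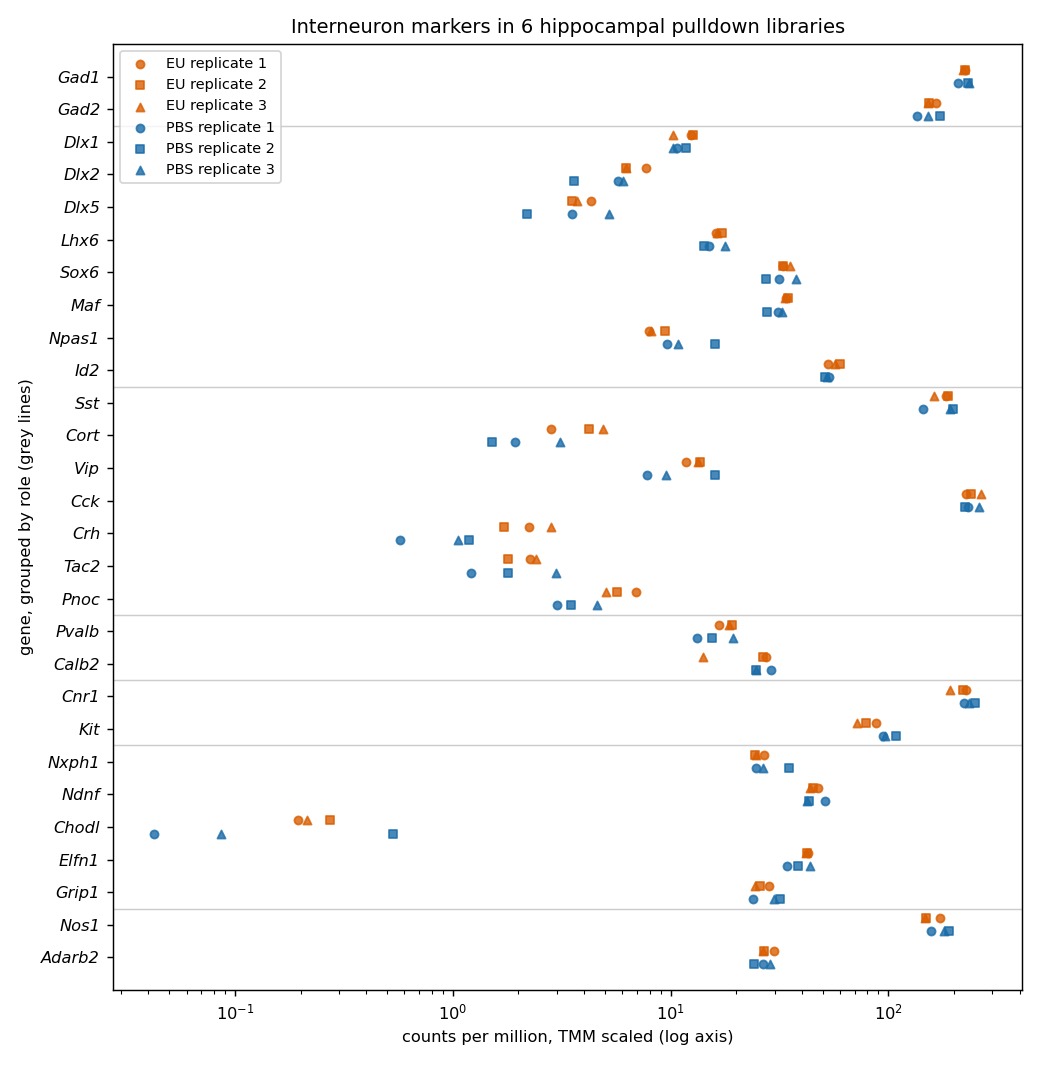
Level of each of the 28 interneuron markers in CPM (TMM scaled, log axis) in the 3 EU (orange) and 3 PBS (blue) libraries, 1 symbol per library, with genes ordered by role. Gad1, Cck and Cnr1 lie farthest to the right in both groups, Chodl lies under 1 CPM, and the colours overlap in most rows.

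The members differed in level by more than 3 orders of magnitude. Per kb of the longest annotated transcript, Cck had the highest mean level, 303 CPM per kb, followed by Sst with 246 and, at a distance, Gad1 with 66.7 CPM per kb. Cnr1 (38.5), Id2 (27.6) and Gad2 (27.0) came next, and Pvalb (17.4), Kit (17.1), Calb2 (17.0) and Nos1 (16.4 CPM per kb) lay close together. Pvalb, Kit, Calb2 and Nos1 did not differ in level beyond the spread over libraries, as Pvalb alone ranged 1.46-fold. At the low end were Pnoc (2.22), Crh (1.21) and Chodl (0.0885 CPM per kb). Whether intronic reads were counted is not stated, so a level per transcript length is approximate for genes with long introns.

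The glutamate decarboxylases, which define the class, had fold changes close to 0. Gad1, which supplies most of the basal GABA, stood at 224, 225 and 221 CPM in the EU libraries and at 208, 231 and 234 CPM in PBS. The EU values fell between those of PBS replicates 1 and 2, and the log2 fold change was -0.01 (SE 0.06, edgeR adjusted p = 0.975), or 0.014 with library totals only. Gad2, the isoform anchored to synaptic vesicles, had 165, 153 and 152 CPM in EU and 135, 173 and 152 CPM in PBS. PBS replicate 1 was lowest and PBS replicate 2 highest, and the log2 fold change was 0.03 (SE 0.09, edgeR adjusted p = 0.947). In GRCm39 both genes are on chromosome 2, plus strand: Gad1 and Gad2 are annotated at 70383416 to 70432358 and at 22512217 to 22583886.

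Transcription factors of the interneuron lineage showed small differences, 7 of the 8 with higher values in EU, and their median log2 fold change was 0.09. The Dlx homeobox factors specify GABAergic identity in the embryo and persist at low levels in adult interneurons. Dlx1 stood at 12.4, 12.7 and 10.3 CPM in EU and at 10.7, 11.7 and 10.3 CPM in PBS, and the groups overlapped. Dlx2 had 7.70, 6.23 and 6.22 CPM in EU and 5.73, 3.60 and 6.07 CPM in PBS. Every EU library lay above every PBS library for Dlx2, but EU replicate 3 and PBS replicate 3 were close, and PBS replicate 2 was far the lowest. Its log2 fold change was 0.39 (SE 0.22, edgeR adjusted p = 0.742), and 0.19 without PBS replicate 2. Dlx5 ranged from 2.18 to 5.20 CPM, both extremes within PBS. Dlx1 (chromosome 2, 71358457 to 71364325) lies entirely within the annotated span of the antisense gene Dlx1as, whose counts came to 27.8% of those of Dlx1, and with no strand setting stated, reads of the pair cannot be told apart.

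Factors of the medial ganglionic eminence overlapped between the groups except for Maf. Lhx6, which this lineage needs for its migration and fate, had 16.1, 17.2 and 16.3 CPM in EU and 15.0, 14.2 and 17.8 CPM in PBS. Sox6, which acts downstream of Lhx6, had 32.7, 32.7 and 35.2 CPM in EU and 31.4, 27.5 and 37.7 CPM in PBS. For both, PBS held the lowest and the highest library. Maf, which takes part in the choice between somatostatin and parvalbumin fates, had 33.9, 34.5 and 33.4 CPM in EU against 31.3, 27.7 and 32.5 CPM in PBS. These values did not overlap, yet the gap between the nearest libraries was under 1 CPM and the log2 fold change was 0.15 (SE 0.09, edgeR adjusted p = 0.736).

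Npas1, a repressor expressed in caudal eminence interneurons, was the transcription factor with the lowest fold change. It stood at 7.97, 9.40 and 8.10 CPM in EU and at 9.64, 16.0 and 10.8 CPM in PBS. All EU libraries were below all PBS libraries, with PBS replicate 2 well above the other 2 of its group. The log2 fold change was -0.52 (SE 0.20, edgeR adjusted p = 0.532), and without PBS replicate 2 it was -0.27. Id2, an inhibitor of basic helix-loop-helix factors found in neurogliaform cells, overlapped, with 52.6, 59.8 and 56.9 CPM in EU and 53.5, 51.3 and 52.2 CPM in PBS.

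The neuropeptide precursors held the largest fold changes of the set, all at low counts. Somatostatin and cortistatin belong to one peptide family, and Sst was abundant and Cort scarce. The ends of their coding sequences are shown because they share a run of 21 bases of the peptide core. A read longer than that run also covers bases that differ, and how reads there were assigned was not tested. The last 60 coding bases of each, from GENCODE transcripts on GRCm38, minus strand of chromosome 16 for Sst and of chromosome 4 for Cort, written 5′ to 3′ with the longest run common to both in capitals, are:
Sst: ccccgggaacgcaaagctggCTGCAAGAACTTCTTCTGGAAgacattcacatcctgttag
Cort: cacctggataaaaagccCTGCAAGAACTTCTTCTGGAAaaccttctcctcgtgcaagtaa
The common run of 21 bases was also the longest between the whole transcripts, of 721 and 677 bases. Other related members shared less, with 17 bases for Gad1 and Gad2 and 13 to 15 for pairs of Dlx genes.

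Sst, released by the dendrite-targeting cells, stood at 183, 187 and 162 CPM in EU and at 145, 197 and 191 CPM in PBS. PBS replicate 1 was the lowest and PBS replicate 2 the highest, and the log2 fold change was -0.0036 (SE 0.11, edgeR adjusted p = 0.996), or 0.021 with library totals only. Cort, the precursor of the related sleep-modulating peptide, had 2.83, 4.21 and 4.92 CPM in EU and 1.94, 1.51 and 3.11 CPM in PBS. EU replicate 1 was below PBS replicate 3, so the groups overlapped, and the log2 fold change was 0.86 (SE 0.34, edgeR adjusted p = 0.555). Across the libraries Sst held 6801 to 11025 counts and Cort 65 to 207 counts.

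Crh, corticotropin-releasing hormone, which marks a subset of hippocampal interneurons, had the largest fold change of all members. It had 2.23, 1.72 and 2.83 CPM in EU and 0.575, 1.18 and 1.06 CPM in PBS, from 27 counts in PBS replicate 1 to 119 counts in EU replicate 3. The groups did not overlap, and the log2 fold change was 1.26 (SE 0.42, edgeR adjusted p = 0.458). In GRCm39 Crh occupies bases 19747565 to 19749560 of chromosome 3, minus strand. Pnoc, the nociceptin precursor, had 6.93, 5.69 and 5.03 CPM in EU and 3.02, 3.51 and 4.60 CPM in PBS. EU was again above PBS in every library, by a log2 fold change of 0.66 (SE 0.22, edgeR adjusted p = 0.469). It occupies bases 65638122 to 65662921 of chromosome 14, minus strand.

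Vip, the peptide of interneurons that inhibit other interneurons, overlapped widely. It stood at 11.7, 13.6 and 13.3 CPM in EU and at 7.79, 16.0 and 9.49 CPM in PBS, a 2.05-fold range within PBS alone. The log2 fold change was 0.22 with all libraries (SE 0.23, edgeR adjusted p = 0.851), 0.57 without PBS replicate 2 and 0.015 without PBS replicate 1. Cck, made by basket cells and at lower levels by pyramidal cells, had 228, 240 and 266 CPM in EU and 232, 224 and 261 CPM in PBS, and its log2 fold change was 0.03 (SE 0.08). Tac2, the neurokinin B precursor, ranged from 1.21 to 2.97 CPM, both extremes again in PBS.

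**Figure D2:**
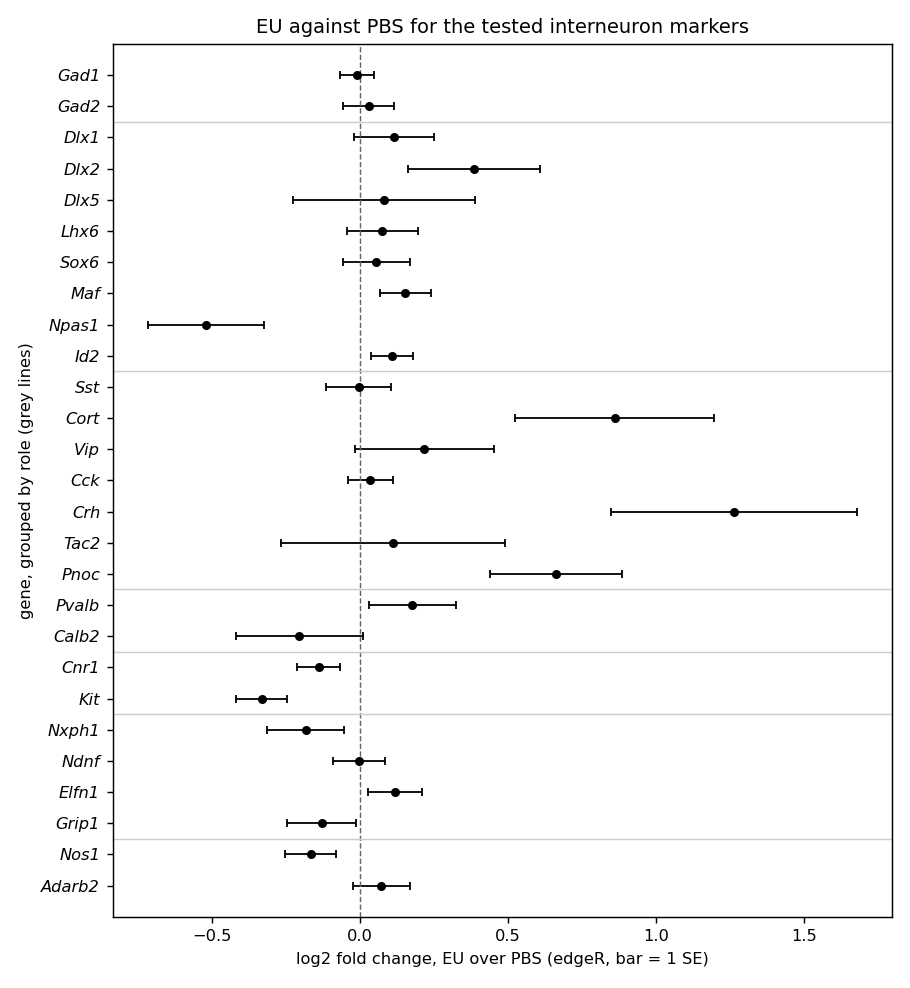
Log2 fold change of EU over PBS for the 27 tested interneuron markers (points) with 1 standard error on each side (bars), from edgeR, in the order of their roles. Crh (1.26), Cort (0.86) and Pnoc (0.66) lie farthest to the right with wide bars, Npas1 (-0.52) and Kit (-0.33) farthest to the left, and none passed the test.

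The calcium-binding proteins had fold changes of opposite sign, and neither passed. Pvalb, the fast calcium buffer of basket and axo-axonic cells, had 16.6, 19.1 and 18.6 CPM in EU and 13.2, 15.4 and 19.3 CPM in PBS. The highest value of Pvalb was in PBS replicate 3, and the log2 fold change was 0.18 (SE 0.15, edgeR adjusted p = 0.815). Leaving out PBS replicate 1 gave 0.050 and leaving out PBS replicate 3 gave 0.34. Calb2, calretinin, had 27.4, 26.5 and 14.0 CPM in EU and 28.8, 24.7 and 24.8 CPM in PBS. EU replicate 3 stood alone below the other 5 libraries, and the log2 fold change of -0.20 with all libraries (SE 0.21, edgeR adjusted p = 0.847) was 0.04 without that library.

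Both receptors of the set had lower values in EU. Kit, the receptor tyrosine kinase for stem cell factor, which subsets of interneurons express, had 87.4, 78.8 and 71.8 CPM in EU and 94.4, 108 and 96.7 CPM in PBS. Each EU library was below each PBS library, and the log2 fold change was -0.33 (SE 0.09, edgeR adjusted p = 0.314). Kit was also the only marker called under any of the 13 alternatives. DESeq2 gave an adjusted p of 0.0171 and edgeR without the filter 0.0115, at log2 fold changes of -0.34 and -0.32. To Dlx5, Cort, Crh and Tac2 DESeq2 gave no adjusted p. Over the 13 alternatives the adjusted p of Kit ran from 0.0115 to 0.997 and the fold change from -0.41 to -0.27. Its annotated span is bases 75735576 to 75817382 of chromosome 5, plus strand. Cnr1, the cannabinoid receptor through which Cck basket cells are silenced, had 228, 220 and 192 CPM in EU and 221, 249 and 233 CPM in PBS. EU replicate 3 was its lowest library, the groups overlapped, and the log2 fold change was -0.14 (SE 0.07, edgeR adjusted p = 0.718). The mast cell genes that would mark another Kit-bearing cell (Cma1, Mcpt4, Cpa3 and Tpsb2) summed to 0.024 to 0.399 CPM in EU and to 0.069 to 0.813 CPM in PBS.

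Synaptic and secreted surface proteins overlapped between the groups in every tested case. Nxph1, a secreted ligand of neurexins, had 26.8, 24.4 and 24.7 CPM in EU and 24.6, 35.1 and 26.6 CPM in PBS, with PBS replicate 2 alone at the top. Elfn1, which shapes excitatory synapses onto somatostatin cells, had 42.5, 42.1 and 41.8 CPM in EU and 34.3, 38.6 and 43.5 CPM in PBS. Its 3 EU libraries were within 1.02-fold of each other while PBS spanned 1.27-fold. Ndnf, a secreted factor of neurogliaform cells, had 47.4, 45.0 and 43.8 CPM in EU and 51.0, 43.1 and 42.2 CPM in PBS, and its log2 fold change was -0.0020 (SE 0.09), or 0.021 with library totals only. Grip1, a PDZ scaffold for AMPA receptors, had 28.2, 25.6 and 24.4 CPM in EU and 24.0, 31.6 and 30.0 CPM in PBS. Grip1 spans 633 kb and overlaps 9 other annotated genes, of which Helb, on the opposite strand, had counts equal to 18.8% of those of Grip1. Chodl, a lectin-like membrane protein of long-range somatostatin cells, had 10, 11 and 9 counts in EU and 2, 23 and 5 counts in PBS, the highest and the lowest both in PBS, and was not tested.

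Nos1, the neuronal nitric oxide synthase of neurogliaform and ivy cells, had 173, 148 and 147 CPM in EU and 157, 189 and 179 CPM in PBS. EU replicate 1 exceeded PBS replicate 1, and the log2 fold change was -0.16 (SE 0.09, edgeR adjusted p = 0.715). Adarb2, an editing enzyme homologue with no known editing activity that marks caudal eminence cells, had 29.9, 26.8 and 26.7 CPM in EU and 26.6, 24.2 and 28.5 CPM in PBS, with a log2 fold change of 0.07 (SE 0.10). Adarb2 spans 566 kb and overlaps 5 other annotated loci, whose counts came to at most 5.01% of those of Adarb2.

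Members were also grouped by the developmental origin of the interneurons they were taken to mark. The medial group held Lhx6, Sox6, Maf, Sst, Cort, Pvalb, Nxph1, Elfn1, Grip1, Nos1 and the untested Chodl. The caudal group held Npas1, Id2, Vip, Cck, Crh, Tac2, Calb2, Cnr1, Kit, Ndnf and Adarb2. Several of these are shared with other cells, so the medians do not describe an origin alone. The 5 markers shared by all classes (both decarboxylases and the Dlx genes) had a median log2 fold change of 0.08, the 10 tested members of the medial eminence group 0.07, and the 11 of the caudal eminence group 0.03. In the medial group 6 of 10 and in the caudal group 6 of 11 had higher values in EU. Pnoc was put in neither group, since both hold cells that express it.

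The range among PBS libraries was wider than the difference between the group means for most markers. The range over the 3 PBS libraries exceeded the ratio of the EU and PBS means for 23 of 27 markers, and the range over the 3 EU libraries did so for 17. The PBS range was wider than the EU range for 22 of 27. Single libraries vary more than means of 3, and shares over all genes were not computed. These counts therefore cannot be read as a trait of the markers. PBS replicate 2 held the highest value of 9 markers (Gad2, Sst, Vip, Npas1, Cnr1, Kit, Nxph1, Grip1 and Nos1) and the lowest value of 9 (Dlx2, Dlx5, Lhx6, Sox6, Maf, Id2, Cort, Cck and Adarb2). PBS replicate 1 held the lowest value of 10, among them Gad1, Gad2, Sst, Vip, Pvalb, Crh and Pnoc. Each EU library was highest for 3 markers, and EU replicate 3 lowest for 5.

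**Figure D3:**
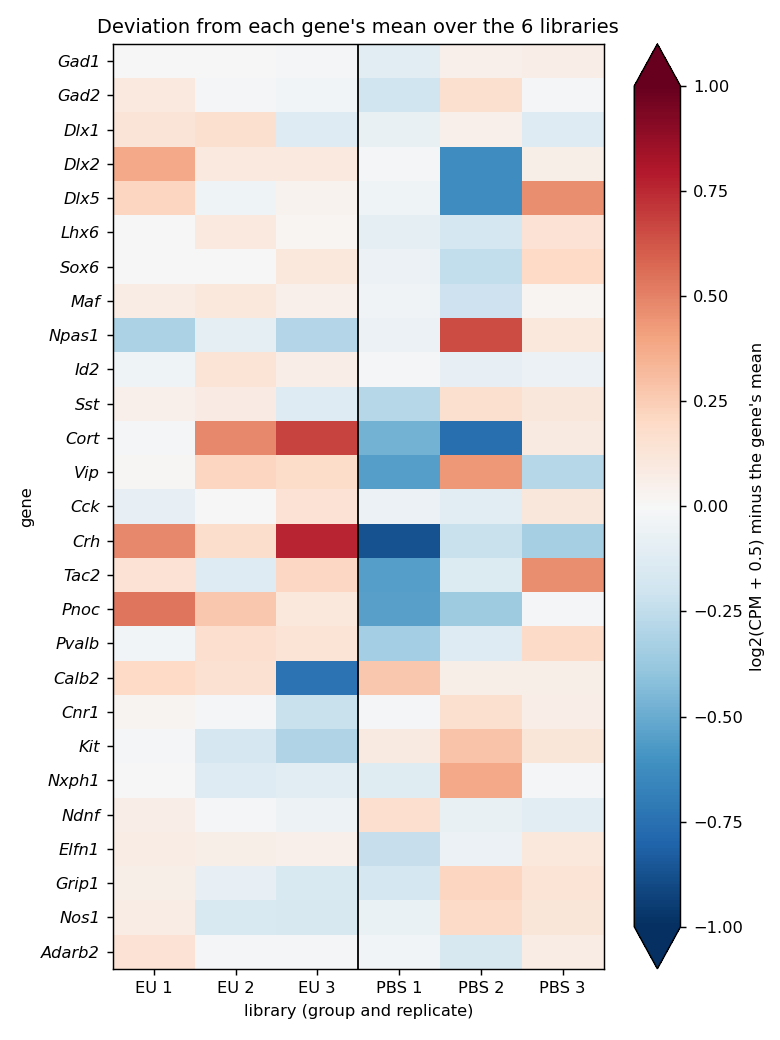
Deviation of each tested interneuron marker from its own mean over the 6 libraries, as log2(CPM + 0.5), with genes in rows and libraries in columns (red above, blue below the mean). Strong colours lie in the rows of Crh, Cort, Pnoc, Dlx2, Dlx5, Tac2, Vip and Npas1, many of them in PBS replicates 1 and 2, and Calb2 is low in EU replicate 3 alone.

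Fold changes are also given by level and gene length, in groupings made after the values were seen and therefore not tested. The 6 tested markers under a mean of 10 CPM (Dlx2, Dlx5, Cort, Crh, Tac2 and Pnoc) all had higher values in EU. Their median log2 fold change was 0.53, beside 55.2% of all tested genes at that level with higher values and a median of 0.06. Taken without sign, the medians were 0.53 for these markers and 0.31 for all genes at that level. Npas1, just above that level at a mean of 10.3 CPM, had the lowest fold change of the set (-0.52). The 21 markers of at least 10 CPM had higher values in 11 cases and a median of 0.03, beside a median of -0.003 for all genes at that level. Without sign these medians were 0.12 and 0.09. Genes spanning under 10 kb, which include 6 of the 7 peptide genes, the Dlx genes and Id2, had higher values for 9 of 10 markers. Their median was 0.11, against 0.01 for all such genes, of which 50.6% had higher values. Without sign the medians were 0.11 for the markers and 0.23 for all such genes. Dlx2, Dlx5, Cort, Crh and Tac2 are in this group and in the group under 10 CPM, so the groupings are not separate. The 5 markers spanning over 100 kb (Sox6, Nxph1, Grip1, Nos1 and Adarb2) had higher values in 2 cases and a median of -0.13. Of all such genes 51.7% had higher values, with a median of 0.01. Without sign the medians were 0.13 for the markers and 0.11 for all such genes. Uridine, the base that EU replaces, made up 18.3% to 28.8% of the longest transcript of the members, lowest in Npas1 and highest in Ndnf.

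Genes that handle GABA beyond its synthesis had small differences. Of 12 such genes 5 had higher values in EU and 7 lower; the median log2 fold change was -0.05, and none passed. Slc32a1, which loads GABA into vesicles, was at 62.9 to 66.1 CPM in EU and 60.4 to 70.3 CPM in PBS. The synaptic adhesion protein Nlgn2 (log2 fold change -0.14) and the postsynaptic scaffold Gphn (-0.17) had lower values in EU without overlap, with edgeR adjusted p of 0.555 and 0.636.

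Among 18 further interneuron genes outside the set, 11 had higher values in EU and 7 lower; the median log2 fold change was 0.06, and none passed. Reln, the secreted guidance protein of neurogliaform and Cajal-Retzius cells, had 158, 150 and 149 CPM in EU and 126, 130 and 126 CPM in PBS. All EU libraries of Reln were above all PBS libraries, at a log2 fold change of 0.26 (SE 0.05, edgeR adjusted p = 0.198). Lamp5, a marker of neurogliaform cells that cortical pyramidal cells also express, had a log2 fold change of 0.47 (edgeR adjusted p = 0.322), without overlap. Cajal-Retzius genes, which mark another source of Reln, Ndnf and Calb2, summed to 8.62 to 12.0 CPM in EU and to 10.8 to 14.0 CPM in PBS.

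Lists that mark neighbouring tissue had larger medians than the interneuron genes. Of 12 genes of neocortex and subiculum, 10 had higher values in EU; the median log2 fold change was 0.56, and their sum was 583 to 701 CPM in EU against 427 to 535 CPM in PBS, without overlap. The cortical genes Cux2 (0.58), Tshz2 (0.65) and Ccn2 (0.60) had the smallest p of that list, with edgeR adjusted p from 0.215 to 0.266. Of 9 genes of striatal projection neurons, which are GABAergic themselves, 7 had higher values, with a median of 0.42, but their sums overlapped (167 to 183 CPM in EU and 162 to 190 CPM in PBS). The dopamine receptor gene Drd1 had a log2 fold change of 0.63. Crh, Cort, Pnoc and Lamp5 are also expressed in neocortex, and the part of neighbouring tissue in their values was not tested. Markers of the hippocampus itself were plentiful in every library: the dentate granule list summed to 375 to 396 CPM in EU and 391 to 513 CPM in PBS, and the CA1 and CA3 list to 727 to 853 and 764 to 841 CPM. Of those lists 7 of 8 and 8 of 10 genes had lower values in EU. The medians were -0.12 and -0.20, and none passed. Lower in EU without overlap were 3 of 8 and 4 of 10 genes, beside 7.18% of all tested genes, and 0 lay higher. Fibcd1 had the smallest p of the CA1 and CA3 list, with a log2 fold change of -0.51 (edgeR adjusted p = 0.106). Wfs1 of that list went the other way (0.51), with 232 CPM in EU replicate 3 and 140 and 135 CPM in EU replicates 1 and 2. Astrocyte, oligodendrocyte precursor and microglial lists had medians of 0.03, -0.08 and 0.02.

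**Figure D4:**
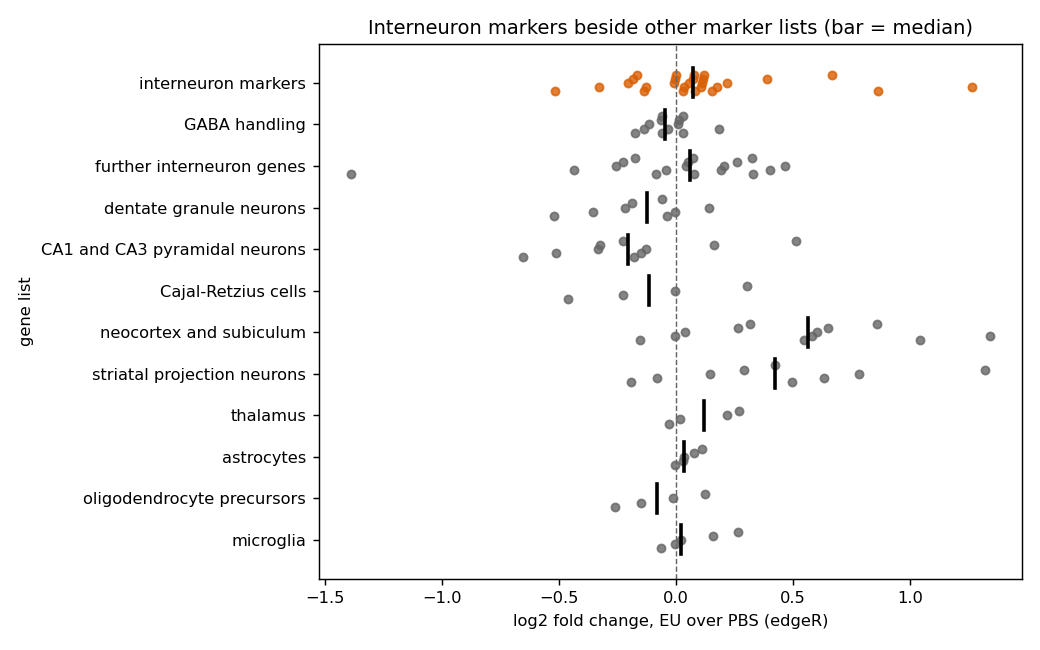
Log2 fold change of EU over PBS (edgeR) for each tested gene of the interneuron set (orange) and of the other lists (grey), with a bar at each list's median. The interneuron median is 0.07, while the neocortex and subiculum list (0.56) and the striatal list (0.42) lie to the right and the CA1 and CA3 list (-0.20) to the left.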

How the data were processed

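The authors deposited one table of unnormalized read counts per gene. The submitters' processing notes name GRCm39 and the tools STAR 2.7.10b, featureCounts 2.0.1 and bcl2fastq 2.20.0. Annotation release, strand setting and counted feature were not given in the sources used. Libraries were grouped by their titles. Totals of 39886723 to 58301239 counts set the precision, and without molecular identifiers reads do not stand for independent molecules.

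The test was that of edgeR 4.0.16, run in R 4.3.3 (quasi-likelihood test, two-sided, filterByExpr, TMM, treatment as the only term). The standard error is the absolute log2 fold change divided by the square root of F. Alternatives were other scalings, no filter, a stricter filter (at least 1 CPM in at least 3 libraries), DESeq2 1.42.0, limma 3.58.1 voom, a replicate block, and each library left out in turn. The gene test was tested on simulated data. The outcome is not reported here, so it gives no measure of power for differences as small as those of most markers. Transcript lengths and base content came from the longest GENCODE M21 protein-coding transcript, found for all 28 members. Figures used matplotlib 3.10.9.

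The members and lists were chosen with earlier results of these data known. Every member could be named, with values in all libraries at a mean of at least 10 CPM, an unadjusted p under 0.05, or no overlap between groups, and of each other list up to 3 genes with the smallest p. Slc32a1 was added after its values were seen, and some genes that the rule names are not reported here.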

Additional observations from a re-analysis of the deposited data

How the results depend on the processing

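The 27 tested markers were refitted under 13 alternatives, and the median log2 fold change of the set stayed between 0.01 and 0.11. Over all genes the number called was 248 without the filter on low counts, 288 with DESeq2, 12 with limma voom and 0 with the other scalings or the stricter filter; leaving out 1 library gave 0 to 20. Among the markers 1 was called without the filter and 1 with DESeq2, in both cases Kit (-0.32 and -0.34), and 0 under the other 11. Dlx5, Cort, Crh and Tac2 had no adjusted p from DESeq2. The sign turned for 9 markers. With library totals only it turned for Gad1 (0.014), Sst (0.021) and Ndnf (0.021). Sst was 0.0040, 0.0061 and 0.0064 and Ndnf 0.0062, 0.0086 and 0.0016 without the filter, with limma voom and with the replicate block. With 1 library left out, values ran from -0.068 to 0.026 for Gad1, -0.061 to 0.12 for Gad2, -0.18 to 0.44 for Dlx5, -0.048 to 0.19 for Sox6, -0.14 to 0.074 for Sst, -0.037 to 0.11 for Cck, -0.15 to 0.53 for Tac2, -0.37 to 0.039 for Calb2 and -0.050 to 0.083 for Ndnf; the cause was not tested. Of the markers that kept their sign, values ran from 0.055 to 0.20 for Dlx1, 0.0075 to 0.18 for Lhx6, 0.087 to 0.21 for Maf, -0.29 to -0.019 for Nxph1, 0.031 to 0.21 for Elfn1, -0.25 to -0.052 for Grip1, -0.20 to -0.076 for Cnr1 and 0.010 to 0.13 for Adarb2. With the replicate number as a block 18 genes and 0 markers were called. Same-numbered libraries deviated together for numbers 1 (correlation 0.14) and 3 (0.15) but not 2 (-0.01), and EU replicate 2 correlated best with PBS replicate 1. Such weak correlations cannot decide whether the numbers mark pairs. The labels do not say that they do, so the number was used only in this alternative. Depth limits Chodl, Crh, Tac2 and Cort most.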
